A study of Mus musculus with 27 samples.

Results

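The genes described here are 8 genes of club cells and other secretory cells of the airway: Scgb1a1, Scgb3a2, Scgb3a1, Muc5b, Bpifa1, Cyp2f2, Aldh1a1 and Chia. They were chosen by name, from what is known of these cells but with earlier results of these data known. Their rows were taken by gene symbol. Of the 8, 7 were found among the 16024 rows of the expression table, and Muc5b is not analysed here. The values are FPKM as deposited by the authors, that is, sequenced fragments scaled by transcript length and by library size, so levels of different genes can be set side by side.

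Lung cells of C57BL/6 mice were sequenced in 10 groups with 27 libraries in all. Tumour lungs were taken at day 20 to 25 of tumour growth, after HKP1 lung cancer cells had been given through the tail vein, and WT lungs carried no tumour. HKP1 is a mouse lung adenocarcinoma line. The mice of all 10 groups were of this 1 strain, and all lungs were perfused and dissociated to single cells before sorting. From each kind of lung, Epcam+CD11b-CD11c- epithelial cells were sorted (3 tumour and 3 WT libraries) and total lung cells were kept (3 tumour and 3 WT). Neutrophils were sorted as CD11b+Ly6G+ (3 tumour and 3 WT libraries), and monocytes as CD11b+Ly6C+ (2 tumour and 2 WT). Macrophages were CD11c+CD11b+ in tumour lungs (3 libraries) but CD11c+CD11b- in WT lungs (2 libraries), so in macrophages the sort gate and the tumour cannot be told apart. Libraries are called here by the replicate numbers of their titles. Whether the libraries of a group are from different mice is not given, so a p-value here reflects the spread between libraries, which may be technical.

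Club cells are the non-ciliated secretory cells that line the small airways of the mouse. They release secretoglobins and other secreted proteins into the airway lining fluid, carry enzymes that oxidise inhaled chemicals, and act as progenitors that renew themselves and ciliated cells after injury. Scgb1a1, the club cell secretory protein, is their most used marker. Epcam is a surface protein of lung epithelium and of tumours that arise from it, so the Epcam+ libraries of tumour lungs can hold host epithelium and injected tumour cells, which this table does not separate. In these bulk libraries, fewer cells of a type and less RNA per cell cannot be told apart.

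In the mouse genome (GRCm38, GENCODE M21) Scgb1a1 lies at chr19:9083636-9087958 on the minus strand. On the plus strand, Scgb3a1 lies at chr11:49663610-49665118, Cyp2f2 at chr7:27119909-27133660, Bpifa1 at chr2:154142880-154149219 and Aldh1a1 at chr19:20492715-20643465. Chia is annotated there as Chia1, at chr3:106113229-106132120 on the plus strand. RefSeq promoter windows (GRCm38.p6) were matched for 5 of the 8 genes, namely Scgb3a1, Cyp2f2, Bpifa1, Aldh1a1 and Chia. Of these, 3 are printed: Cyp2f2, which was highest in the same library as Scgb1a1 in 9 of the 10 groups, and Scgb3a1 and Bpifa1, secreted airway proteins for which this held in 6. Each runs 5′ to 3′ on the gene's own strand and ends before the annotated start. Scgb3a1 is chr11:49663345-49663594, Cyp2f2 is chr7:27119705-27119908 and Bpifa1 is chr2:154142630-154142879. Capitals mark matches, on either strand, to CTCAAG (a core searched for NKX2-1, a lung epithelial transcription factor), TNTTNAC (a short core searched for FOXA factors), TTGCNNAA (a core searched for C/EBP factors) and TATAAA (the TATA box).
Scgb3a1: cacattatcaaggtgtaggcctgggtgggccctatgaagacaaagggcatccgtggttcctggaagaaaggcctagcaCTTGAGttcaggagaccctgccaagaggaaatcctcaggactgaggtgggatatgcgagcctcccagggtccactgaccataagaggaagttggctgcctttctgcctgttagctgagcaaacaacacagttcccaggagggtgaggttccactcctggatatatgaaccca
Cyp2f2: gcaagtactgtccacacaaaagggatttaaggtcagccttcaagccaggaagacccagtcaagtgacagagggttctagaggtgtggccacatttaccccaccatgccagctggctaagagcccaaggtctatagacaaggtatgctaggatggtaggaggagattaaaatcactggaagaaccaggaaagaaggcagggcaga
Bpifa1: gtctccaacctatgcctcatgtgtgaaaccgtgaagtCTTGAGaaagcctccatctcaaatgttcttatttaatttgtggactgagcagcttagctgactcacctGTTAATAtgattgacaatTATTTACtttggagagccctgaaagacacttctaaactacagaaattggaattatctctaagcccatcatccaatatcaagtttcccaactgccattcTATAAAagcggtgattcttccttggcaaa

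Counted back from the RefSeq start, over 250 bases, Scgb3a1 held CTCAAG on the reverse strand at base -172. Bpifa1 held it on the reverse strand at base -213, together with TNTTNAC at -127 and, on the reverse strand, at -145, and TATAAA at -29. No stretch of the printed Cyp2f2 window matched any of these 4 motifs. Among 32851 RefSeq promoters of the same length, 13.3% held CTCAAG, 31.5% held TNTTNAC, 9.56% held TTGCNNAA and 12.4% held TATAAA. The shorter core CAAG, which overlaps CTCAAG, was in 86.6% of those promoters and is not marked. These matches are a description of letters and not of sites that a factor was shown to use.

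Epcam was at 84.1 to 96.0 FPKM in tumour Epcam+ cells and 77.4 to 94.3 FPKM in WT Epcam+ cells, against 9.35 to 11.1 FPKM in tumour total lung and 11.03 to 16.2 FPKM in WT total lung. Ptprc, the pan-leukocyte marker, was at 13.8 to 20.9 FPKM in tumour and 16.3 to 37.6 FPKM in WT Epcam+ cells. The surfactant genes Sftpc and Sftpb, which define alveolar type II cells, were listed at 0 in all 6 Epcam+ libraries, and Sftpc also in the 3 WT total lung libraries. Genes expressed broadly, such as Fth1 in the neutrophil libraries and Psap in tumour macrophages, were listed at 0 too, so a 0 in this table may be a failed estimate. Relative depth, read from the spacing of low values, was 1.25 to 1.58 in tumour and 0.835 to 0.959 in WT Epcam+ libraries, on a scale where tumour macrophage replicate 1 is 1. This reading is rough: in WT Epcam+ replicate 9 the chosen spacing held for 19 genes and the next best for 16. Between 8560 and 11420 genes reached 1 FPKM in a library.

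Each of the 7 genes had its highest group mean in WT Epcam+ cells. Scgb1a1 was the most abundant of the 7 by far. Its mean was 1952 ± 382 FPKM in tumour Epcam+ cells and 7991 ± 5022 FPKM in WT Epcam+ cells, and 547 ± 674 FPKM in tumour total lung and 3446 ± 3369 FPKM in WT total lung (SD, n = 3 each). It made up 65.4% to 97.3% of the summed FPKM of the 7 genes in the 27 libraries. Of all genes in the table it ranked first in WT Epcam+ replicates 8 and 9 and in WT total lung replicate 12, and in WT Epcam+ replicate 9 the 7 genes together held 3.50% of the library's summed FPKM. In decreasing order of mean, the groups for Scgb1a1 were WT Epcam+ cells, WT total lung, tumour Epcam+ cells, WT neutrophils (778 FPKM), tumour total lung, WT macrophages (512), WT monocytes (218), tumour macrophages (198), tumour monocytes (37.0) and tumour neutrophils (12.4). Neighbours in that order overlapped in their libraries except tumour Epcam+ cells and WT neutrophils.

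**Figure D1:**
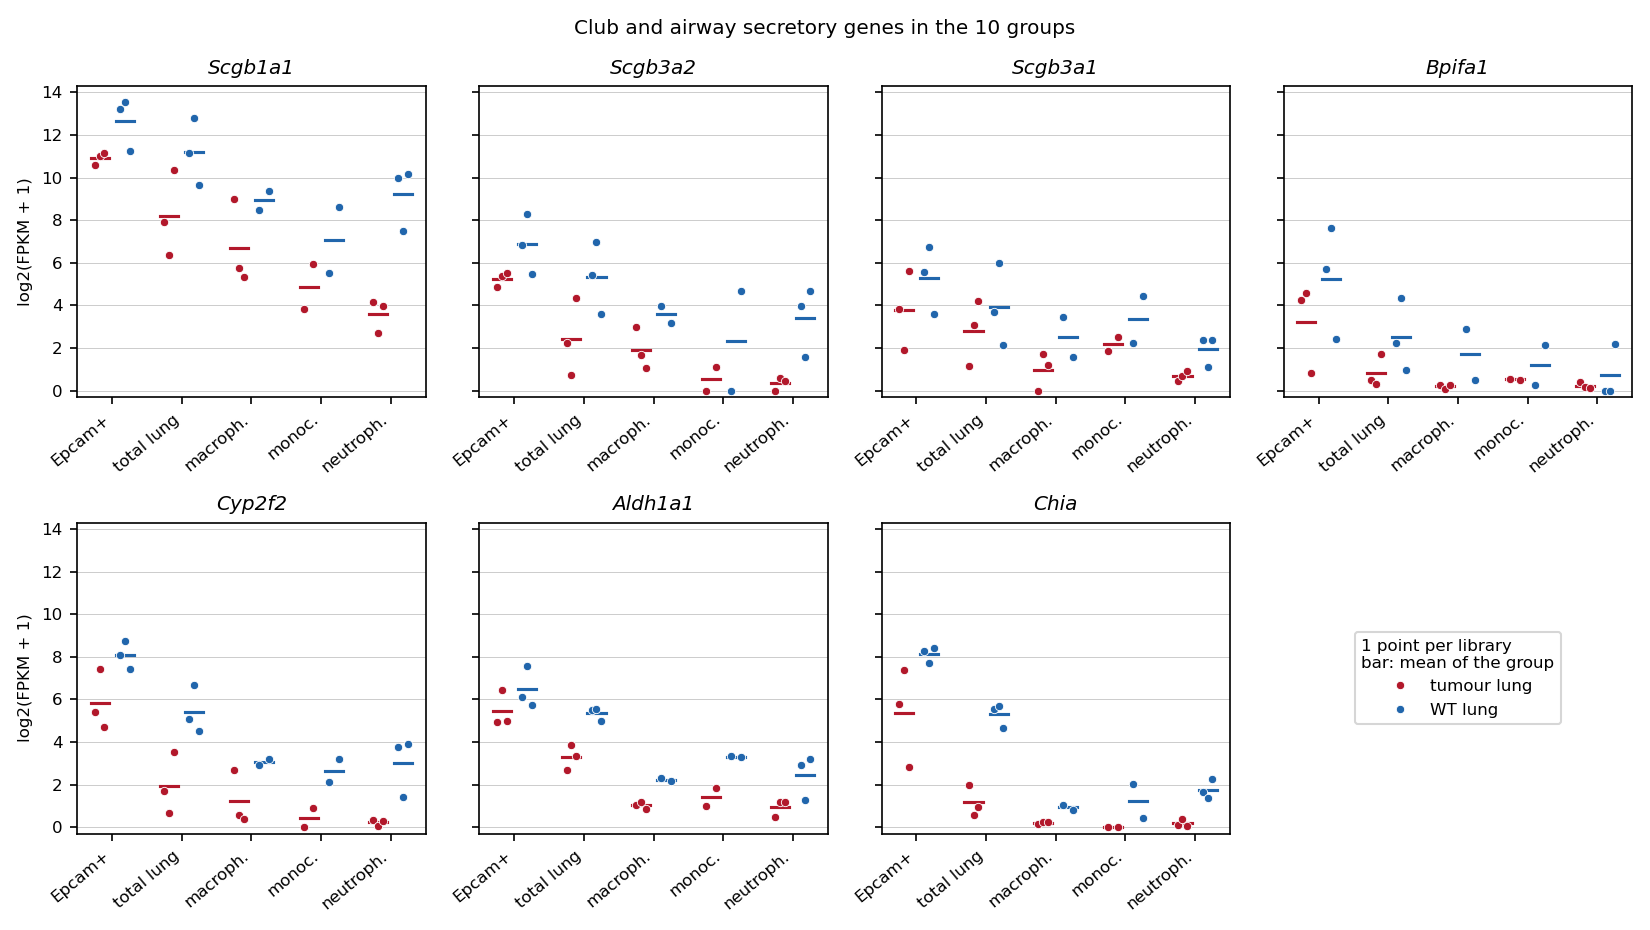
Level of each of the 7 genes, as log2(FPKM + 1), in tumour (red) and WT (blue) libraries of 5 preparations: 1 point is a library and the bar is the group mean. Scgb1a1 is the highest of the 7 in every group, and WT Epcam+ cells have the highest mean for each gene.

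The first comparison asked how each gene differed between tumour and WT Epcam+ cells. All 7 genes had lower means in tumour Epcam+ cells. The libraries of the 2 groups did not overlap for Scgb1a1 and Chia. Over all genes tested, 21.0% had tumour libraries wholly below WT and 25.5% wholly above. No gene of the 7 passed the threshold, an adjusted p under 0.05 by limma on log2(FPKM + 1), where 8.89% of the 11823 genes tested were called lower and 14.9% higher in tumour. At an unadjusted p under 0.05, 4 of the 7 passed, Scgb1a1, Scgb3a2, Cyp2f2 and Chia, where 17.9% of all genes tested passed lower and 22.9% higher. The median log2 change of the 7 was -1.76, beside 0.01 over all genes tested.

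Among the secretoglobins, Scgb1a1 stood at 1521, 2082 and 2252 FPKM in tumour Epcam+ replicates 9, 10 and 11, against 9405, 12155 and 2414 FPKM in WT replicates 8, 9 and 10. WT replicate 10 lay just above the tumour libraries, and the other WT libraries far above them. The log2 change was -1.76 (SE 0.58, 95% interval -3.12 to -0.39, adjusted p = 0.0652). Scgb3a2, a secretoglobin made mainly in the airway epithelium, stood at 28.3, 40.1 and 45.1 FPKM in the same tumour libraries and 114, 316 and 43.8 FPKM in the WT libraries. Here WT replicate 10 fell inside the tumour range, and the log2 change was -1.63 (SE 0.63, adjusted p = 0.0990). Scgb3a1, a secretoglobin of larger airways, was at 13.4, 2.70 and 47.5 FPKM in tumour and 45.9, 105.4 and 11.2 FPKM in WT Epcam+ cells. The Scgb3a1 groups overlapped, with a log2 change of -1.52 (SE 1.06, adjusted p = 0.313).

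Bpifa1, a secreted airway defence protein of the BPI fold family also called SPLUNC1, was at 17.99, 23.1 and 0.764 FPKM in tumour Epcam+ replicates 9, 10 and 11 and at 51.5, 197 and 4.41 FPKM in WT replicates 8, 9 and 10. Of the 7 it was the most uneven within the Epcam+ groups, with a highest library 30.3 times the lowest in tumour and 44.6 times in WT. The log2 change was -2.04 (SE 1.45, adjusted p = 0.323).

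Cyp2f2, the cytochrome P450 that activates naphthalene in mouse club cells, was at 41.4, 173 and 24.8 FPKM in tumour Epcam+ cells and at 267, 422 and 168 FPKM in WT Epcam+ cells. Tumour replicate 10 just exceeded WT replicate 10, and the other tumour libraries lay below every WT library. The log2 change was -2.22 (SE 0.69, adjusted p = 0.0544). Aldh1a1, an aldehyde dehydrogenase that makes retinoic acid, was at 29.3, 87.1 and 30.3 FPKM in tumour and 67.5, 191 and 51.7 FPKM in WT, with overlap (log2 change -1.02, SE 0.58, adjusted p = 0.225). Aldh1a1 has a near-identical copy in the mouse, Aldh1a7, whose reads may be shared with it, so its values are uncertain to that extent.

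Chia, the acidic mammalian chitinase, a secreted enzyme that degrades chitin, was at 54.8, 166 and 6.11 FPKM in tumour Epcam+ cells and at 308, 207 and 341 FPKM in WT Epcam+ cells. All 3 tumour libraries lay below all 3 WT libraries, but the tumour libraries spread over a 27.1-fold range and the WT libraries over a 1.65-fold range. The log2 change was -2.79 (SE 1.01, adjusted p = 0.0835). Of the 11823 genes tested, 21.0% had tumour Epcam+ libraries wholly below WT and 25.5% wholly above. The count of genes called lower was 2 in place of 0 without tumour replicate 10 (Cyp2f2 and Chia) or without WT replicate 10 (Scgb1a1 and Scgb3a2).

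Markers of other cells in the Epcam+ libraries moved as well, and their part in these values was not tested. Of 8 ciliated cell markers, 6 were in the table and were called in neither direction, with sums of 153 to 559 FPKM in tumour and 293 to 854 FPKM in WT. Of 8 alveolar type I markers, 4 were called lower, with sums of 562 to 1229 FPKM in tumour and 1478 to 1949 FPKM in WT. All 5 endothelial markers were called lower, with sums of 6.33 to 33.2 FPKM in tumour and 103 to 222 FPKM in WT. Goblet markers, 3 of 5 in the table, summed to 24.3 to 51.9 FPKM in tumour and 1.77 to 9.69 FPKM in WT, and the 5 basal markers to 6.54 to 18.1 FPKM in tumour and 0.334 to 5.85 FPKM in WT. For goblet and for basal cells alike, 2 markers were tested, 1 called higher and the other with a negative change. Of the 5 basal markers, 1 averaged at least 1 FPKM in tumour and 1 in WT Epcam+ cells. Of 7 alveolar type II markers tested, with a median log2 change of -1.30, 5 had negative changes that passed an unadjusted p under 0.05 but not the adjusted threshold. The other 2, Sftpa1 and Slc34a2, were called higher and are listed at 0 in the WT Epcam+ libraries.

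In total lung cells the same comparison gave 3 genes lower in tumour: Chia, Aldh1a1 and Cyp2f2. Here 20.4% of the 11747 genes tested were called lower and 22.1% higher. The median log2 change of the 7 was -2.89, beside -0.01 over all genes tested. Libraries did not overlap for the same 3 genes, where 27.6% of all genes tested had tumour libraries wholly below WT and 28.2% wholly above.

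Chia was at 2.98, 0.512 and 0.962 FPKM in tumour total lung replicates 12, 13 and 14, against 46.5, 49.97 and 24.1 FPKM in WT replicates 11, 12 and 13. It was 17.3-fold lower in tumour on the log2(FPKM + 1) scale (log2 change -4.11, SE 0.40, adjusted p = 0.000395). Aldh1a1 was at 5.46, 13.7 and 9.01 FPKM in tumour and 44.3, 46.0 and 30.6 FPKM in WT (log2 change -2.05, SE 0.29, adjusted p = 0.00167). Cyp2f2 was at 2.22, 0.589 and 10.4 FPKM in tumour and 33.1, 101 and 21.6 FPKM in WT (log2 change -3.47, SE 0.77, adjusted p = 0.00983). For each of these 3 genes, every tumour library lay below every WT library.

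The secretoglobins and Bpifa1 were lower on average in tumour total lung but did not pass. Scgb1a1 was at 241, 81.0 and 1319.7 FPKM in tumour and 2304, 7238 and 798 FPKM in WT, where tumour replicate 14 exceeded WT replicate 13 (log2 change -2.996, SE 1.09, adjusted p = 0.0591). Scgb3a2 showed the same crossing, with 3.79, 0.651 and 19.6 FPKM in tumour and 42.5, 125 and 11.2 FPKM in WT (log2 change -2.89, SE 1.05, adjusted p = 0.0591). Scgb3a1 was at 1.23, 7.46 and 17.5 FPKM in tumour and 11.98, 62.1 and 3.45 FPKM in WT (log2 change -1.13, SE 1.04, adjusted p = 0.412). Bpifa1 was at 0.395, 0.250 and 2.27 FPKM in tumour and 3.77, 19.1 and 0.961 FPKM in WT (log2 change -1.68, SE 0.79, adjusted p = 0.124). Without tumour replicate 14, which had the highest Scgb1a1 of its group, 5 of the 7 were called lower, and without WT replicate 13, which had the lowest, 6 were.

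Of the 9 alveolar type II markers tested in total lung, 8 were called lower in tumour, while Sftpc, listed at 0 in WT, was called higher. Without Sftpc, the alveolar type II sums were 207 to 1007 FPKM in tumour and 3265 to 5368 FPKM in WT, with no overlap. Ciliated markers were lower for 3 of 5 tested, with sums of 33.9 to 61.7 FPKM in tumour and 87.3 to 120 FPKM in WT, and leukocyte markers were higher for 4 of 7, with sums of 2184 to 3643 FPKM in tumour and 1367 to 1507 FPKM in WT. All 5 endothelial markers were called lower, with sums of 49.7 to 125 FPKM in tumour and 270.1 to 572 FPKM in WT. Fibroblast markers were lower for 4 of 5, with sums of 76.9 to 238 FPKM in tumour and 362 to 1102 FPKM in WT, and alveolar type I markers for 4 of 8. The part of these cells in the values above was not tested. The difference between the tumour effect in Epcam+ cells and that in total lung, tested as an interaction, was called for 0 of the 7, beside 4.91% of 12419 genes called lower and 5.84% higher. At an unadjusted p under 0.05 the interaction also passed for 0 of the 7, beside 11.9% of all genes lower and 16.2% higher. The Scgb1a1 estimate was 1.24 (95% interval -1.82 to 4.29), so these data do not fix whether the effects differ.

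**Figure D2:**
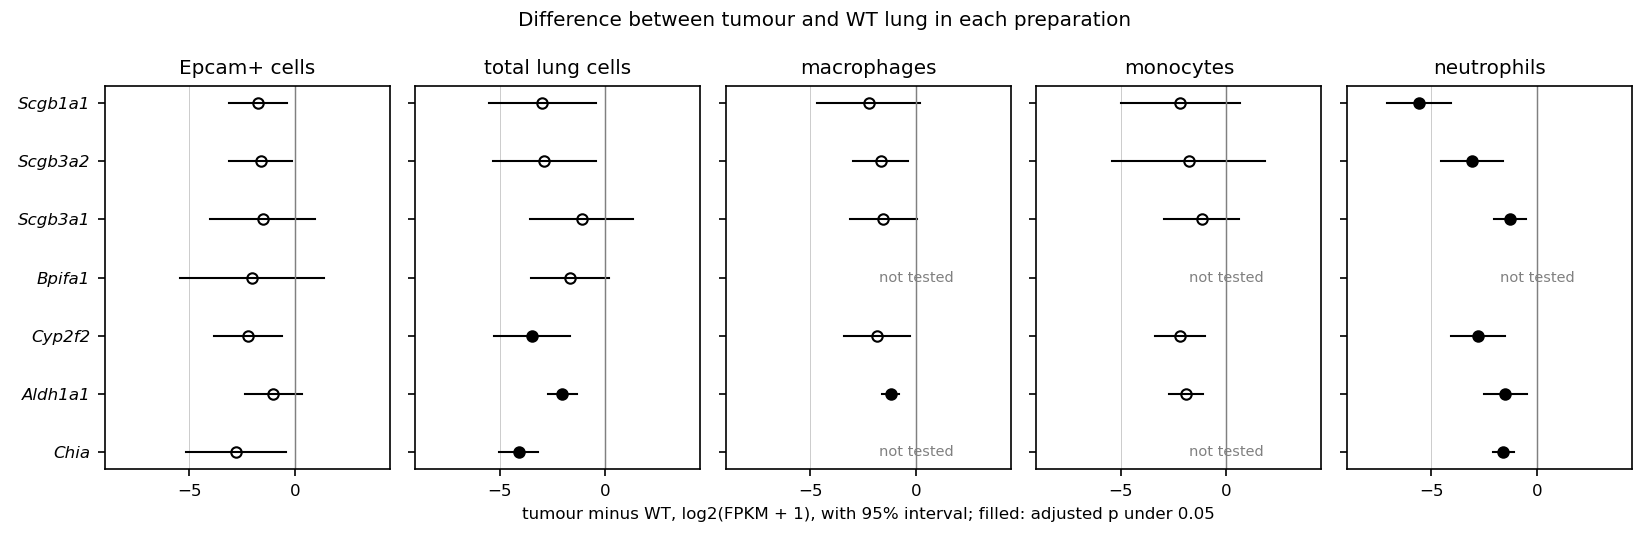
Log2 change (tumour minus WT, on log2(FPKM + 1)) of each gene in the 5 preparations, with its 95% interval: filled points passed an adjusted p under 0.05. The tested changes all lie below 0, with 0 filled points in Epcam+ cells, 3 in total lung, 1 in macrophages, 0 in monocytes and 6 in neutrophils. Of the 6 in neutrophils, 4 passed the filter through WT alone and had to differ. Over all genes tested, 8.89% were called lower in Epcam+ cells, 20.4% in total lung, 17.7% in macrophages, 0.0% in monocytes and 25.8% in neutrophils.

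Sorting for Epcam was compared with the unsorted lung to place each gene. In tumour lungs, 5 of the 7 genes were called higher in Epcam+ cells than in total lung cells, where 29.5% of all genes tested were higher and 23.4% lower. Chia showed the greatest of these differences (log2 change 4.15, SE 1.06, adjusted p = 0.0151), followed by Cyp2f2 (3.89, SE 0.89, adjusted p = 0.00976). Scgb3a2 (2.80, adjusted p = 0.0248), Scgb1a1 (2.70, adjusted p = 0.0403) and Aldh1a1 (2.15, adjusted p = 0.00819) were called too. Scgb3a1 (0.96, adjusted p = 0.471) and Bpifa1 (2.38, adjusted p = 0.0775) did not pass. The count fell to 3 without tumour total lung replicate 12 or without replicate 13, and Scgb1a1 lost its call when either of these, or any 1 of the 3 tumour Epcam+ libraries, was left out. Scgb3a2 lost its call without Epcam+ replicate 11 or total lung replicate 12, and Chia without total lung replicate 13 or 14. Bpifa1 gained a call without Epcam+ replicate 11, where it was lowest (adjusted p = 0.000901 by limma).

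In WT lungs, 2 genes were called higher in Epcam+ than in total lung cells, Chia (log2 change 2.83, SE 0.30, adjusted p = 0.000145) and Cyp2f2 (2.64, SE 0.56, adjusted p = 0.00452), where 31.9% of all genes tested were higher and 31.8% lower. Scgb1a1 was 1.46 higher on the log2 scale (SE 0.86, adjusted p = 0.173), and its WT total lung replicate 12, at 7238 FPKM, lay above WT Epcam+ replicate 10, at 2414 FPKM. Epcam did not overlap between these groups. Without WT Epcam+ replicate 10, 4 of the 7 genes were called higher, with Bpifa1 and Aldh1a1 added. Aldh1a1 was also called without WT Epcam+ replicate 9, and Scgb1a1 without WT total lung replicate 12 (adjusted p = 0.0442 by limma).

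The level of Scgb1a1 varied widely between libraries of 1 group. Its highest library was 1.48 times the lowest in tumour and 5.04 times in WT Epcam+ cells, and 16.3 times in tumour and 9.07 times in WT total lung. Epcam varied 1.14-fold in tumour and 1.22-fold in WT Epcam+ cells. The other genes did not all vary with Scgb1a1. In 9 of the 10 groups Cyp2f2 was highest in the library where Scgb1a1 was highest, and Scgb3a2 was in 8. The same count was 6 for Scgb3a1, 6 for Bpifa1, 4 for Aldh1a1 and 2 for Chia. In Epcam+ cells the ratio of Scgb1a1 to Scgb3a2 was 53.8, 51.9 and 49.98 in the tumour libraries and 82.4, 38.4 and 55.1 in the WT libraries. The ratio of Scgb1a1 to Chia was 27.7, 12.6 and 368 in tumour and 30.6, 58.7 and 7.08 in WT.

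Chia stood in another order of libraries than Scgb1a1 in 3 of the 4 Epcam+ and total lung groups, and in the same order in WT total lung. In 4 of the 4 Epcam+ and total lung groups, its 3 libraries stood in the same order as the alveolar type II marker sum, and in 3 of 4 as the alveolar type I sum. Cyp2f2 and Bpifa1 stood in the order of the ciliated marker sum in 3 of the 4 groups, and Scgb1a1 and Scgb3a2 in 2. Over all 10 groups, some of 2 libraries, Chia had the order of the alveolar type II sum in 7 and the opposite order in 2. Over the same 10 groups, Cyp2f2 had the order of the ciliated sum in 6 and the opposite in 1, while Bpifa1 had it in 3 and the opposite in 4. Scgb1a1 had the ciliated order in 5 and the opposite in 1. In sorted leukocytes the ciliated sum rested on few genes, so it may not follow ciliated cells there. In tumour monocytes, 1 of the 6 ciliated markers in the table averaged at least 1 FPKM. Their sum was 101 to 134 FPKM in tumour monocytes, above the 33.9 to 61.7 FPKM of tumour total lung. The fibroblast sum matched more often, with Cyp2f2 in 7 (opposite in 2) and with Scgb1a1 in 7 (opposite in 3). These orders thus do not single out ciliated markers, and how often they would match by chance was not tested. WT Epcam+ replicate 9 shows the split, with the highest Scgb1a1 (12155 FPKM) and ciliated sum (854 FPKM) of its group and the lowest Chia (207 FPKM) and alveolar type I sum (1478 FPKM). WT replicate 10 was the reverse, with 2414 FPKM of Scgb1a1, a ciliated sum of 293 FPKM, 341 FPKM of Chia and an alveolar type I sum of 1949 FPKM. Tumour Epcam+ replicate 11 had the highest Scgb1a1 and Scgb3a1 of its group and the lowest Chia, ciliated sum (153 FPKM) and alveolar type II sum (2706 FPKM). The alveolar type II sums hold several genes listed at 0 in the Epcam+ libraries, so their size is not comparable between groups.

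**Figure D3:**
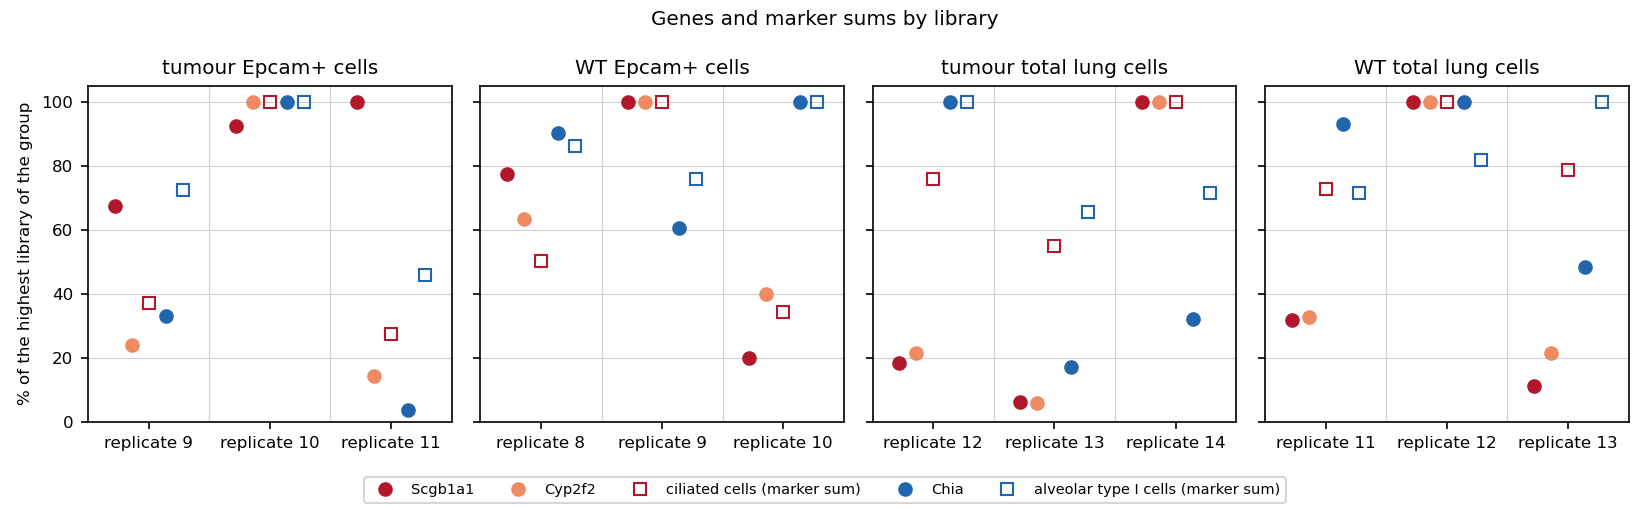
Scgb1a1, Cyp2f2 and Chia (filled circles) and the summed FPKM of ciliated and alveolar type I markers (open squares) in each library, as a percentage of the highest library of the group. In WT Epcam+ replicate 9, Scgb1a1, Cyp2f2 and the ciliated sum are at their highest, while Chia and the alveolar type I sum are at their lowest.

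Over the 10 group means of log2(FPKM + 1), the genes most like each of the 7 were taken by Pearson's r among 10174 genes, as a description of group means that share their libraries. Scgb1a1 was most like Scgb3a2 (r = 0.971), Zxdc (0.947) and Cyp2f2 (0.940). Scgb3a2 was most like Cyp2f2 (0.974), Scgb1a1 and Pdcl (0.957). Cyp2f2 was most like Sec14l3 (0.981), Lamp3 (0.979), a lysosomal protein used to mark alveolar type II cells, and Pla2g1b (0.974), a secreted phospholipase. Chia was most like Atp6v1c2 (0.997), Pla2g1b (0.997) and Acoxl (0.996), with an r of 0.850 to Scgb1a1. Aldh1a1 was most like Lamp3 (0.987), Fam174b (0.985) and Emp2 (0.984), Scgb3a1 like Smagp (0.971), Thra (0.971) and Pcdhgc3 (0.970), and Bpifa1 like Ppp1r9a (0.987), Slc1a3 (0.986) and Tbc1d30 (0.983).

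The 7 genes were also read in the sorted leukocytes, which are not known as a source of secretoglobins. In neutrophils all 6 genes that passed the filter on low values were lower in tumour neutrophils, where 25.8% of the 9349 genes tested were called lower and 33.3% higher. The filter kept Scgb3a1, Scgb3a2, Cyp2f2 and Chia through the WT libraries alone, so these 4 had to differ and the count is not read as support. The libraries of the 6 did not overlap, where 28.0% of all genes tested had tumour libraries wholly below WT and 38.3% wholly above. The median over all genes tested was 0.11 on the log2 scale.

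Scgb1a1 was at 17.0, 5.44 and 14.8 FPKM in tumour neutrophils and at 1012, 179 and 1142 FPKM in WT neutrophils. Every WT library lay more than 10 times above every tumour library. Scgb1a1 was 48.5-fold lower in tumour on the log2(FPKM + 1) scale (log2 change -5.60, SE 0.67, 95% interval -7.11 to -4.08, adjusted p = 0.000203). Scgb3a2 was at 0, 0.527 and 0.367 FPKM in tumour and 14.9, 2.003 and 24.7 FPKM in WT (log2 change -3.07, SE 0.65, adjusted p = 0.00369). Cyp2f2 was at 0.267, 0.0335 and 0.227 FPKM in tumour and 12.6, 1.66 and 13.8 FPKM in WT (log2 change -2.79, SE 0.56, adjusted p = 0.00268).

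Chia was at 0.0769, 0.287 and 0.0428 FPKM in tumour and 2.19, 1.59 and 3.79 FPKM in WT neutrophils (log2 change -1.59, SE 0.22, adjusted p = 0.000441). Scgb3a1 was at 0.351, 0.618 and 0.879 FPKM in tumour and 4.25, 1.13 and 4.21 FPKM in WT (log2 change -1.28, SE 0.33, adjusted p = 0.00901). Aldh1a1 was at 0.416, 1.29 and 1.30 FPKM in tumour and 6.58, 1.43 and 8.31 FPKM in WT (log2 change -1.51, SE 0.45, adjusted p = 0.0178). WT replicate 6 was the lowest WT library for Scgb1a1, Scgb3a2, Cyp2f2, Chia, Scgb3a1 and Aldh1a1. Aldh1a1 lost its call without tumour replicate 6 (adjusted p = 0.0570), WT replicate 5 (0.0669) or WT replicate 7 (0.0589). Bpifa1 did not pass the filter, at 0.310, 0.120 and 0.0941 FPKM in tumour and 0, 0 and 3.55 FPKM in WT neutrophils.

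Alveolar genes stood beside these values in the neutrophil libraries. Sftpc was at 36.5, 9.63 and 14.7 FPKM in tumour and 699, 441 and 1764 FPKM in WT neutrophils, and Sftpb at 3.04, 0.966 and 1.24 FPKM in tumour and 72.1, 36.2 and 163 FPKM in WT. All 9 alveolar type II markers tested were called lower in tumour neutrophils, with sums of 59.0 to 90.3 FPKM in tumour and 624 to 2260.4 FPKM in WT. Ciliated markers, 3 tested and 3 called lower, summed to 5.02 to 7.15 FPKM in tumour and 14.6 to 21.3 FPKM in WT. Markers of cells outside the epithelium were also called lower in tumour neutrophils, 5 of 5 for endothelium, with sums of 9.31 to 16.7 FPKM in tumour and 45.8 to 58.4 FPKM in WT, and 4 of 4 tested for fibroblasts, with sums of 8.22 to 11.2 FPKM in tumour and 26.0 to 80.1 FPKM in WT. Alveolar type I markers were lower for 5 of 6 tested. Over all genes tested in neutrophils, 25.8% were called lower. Of the alveolar type II markers, 9 averaged at least 1 FPKM in WT but 5 in tumour neutrophils. For alveolar type I markers these numbers were 7 and 4. Some markers may thus have passed the filter through WT alone and had to differ, so these counts are not read as support. Epcam stayed near 1 FPKM, at 0.583 to 1.12 FPKM in tumour and 0.410 to 1.53 FPKM in WT neutrophils. The ratio of Scgb1a1 to Sftpb was 5.60, 5.63 and 11.9 in tumour and 14.04, 4.94 and 7.01 in WT neutrophils, ranges that overlap. The part of RNA from other lung cells in the neutrophil values was not tested.

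In macrophages 5 of the 7 genes were tested, and Aldh1a1 was called lower in the tumour CD11c+CD11b+ cells, where 17.7% of 10119 genes were called lower and 20.3% higher. Aldh1a1 was at 1.05, 1.30 and 0.817 FPKM in tumour and 3.99 and 3.44 FPKM in WT macrophages (log2 change -1.20, SE 0.17, adjusted p = 0.00186). Scgb1a1 was at 502, 53.3 and 39.9 FPKM in tumour and 358 and 665 FPKM in WT (log2 change -2.24, SE 1.02, adjusted p = 0.129). Tumour replicate 1 stood apart from the other tumour macrophage libraries for Scgb1a1, and also for Scgb3a2, at 7.06, 2.16 and 1.12 FPKM in tumour and 14.8 and 8.06 FPKM in WT. Cyp2f2 was at 5.52, 0.510 and 0.302 FPKM in tumour and 6.46 and 8.31 FPKM in WT. Without tumour replicate 1, 4 of the 5 genes were called lower, and without WT replicate 2, 2 were. The groups did not overlap for Scgb3a2, Cyp2f2 and Aldh1a1, 3 of the 5 tested, where 31.3% of all genes had tumour libraries wholly below WT and 32.4% wholly above. Scgb3a1 was at 0, 2.30 and 1.29 FPKM in tumour and 9.99 and 1.96 FPKM in WT. Bpifa1 and Chia did not pass the filter, and Chia was at 0.118 to 0.174 FPKM in tumour and 0.763 to 1.07 FPKM in WT. Epcam was at 1.95 to 5.95 FPKM in tumour and 43.0 to 47.7 FPKM in WT macrophages, and the alveolar type II sum at 150 to 383 FPKM in tumour and 649 to 857 FPKM in WT. Without Sftpc, the alveolar type II sum was at 107 to 205 FPKM in tumour and 163 to 208 FPKM in WT macrophages, ranges that overlap. The ciliated sum was at 15.2 to 64.7 FPKM in tumour and 178 to 228 FPKM in WT macrophages. Few genes carried that sum: of the 6 in the table, 1 averaged at least 1 FPKM in tumour and 3 in WT macrophages. Only 2 ciliated markers were tested, and 2 were called lower. The part of Epcam+, alveolar or ciliated cells in the macrophage values was not tested.

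In monocytes, with 2 libraries a group, 0 of the 5 genes tested passed, and 0.0% of 10366 genes did in either direction. By limma, Aldh1a1 had a log2 change of -1.91 (SE 0.32, adjusted p = 0.178) and Cyp2f2 one of -2.20 (SE 0.48, adjusted p = 0.182). These passed an unadjusted p under 0.05, as did 815 genes lower and 744 higher in tumour over the whole table. Cyp2f2, at 0 and 0.874 FPKM in tumour and 3.36 and 8.08 FPKM in WT monocytes, passed the filter through the WT libraries alone. Both genes did not overlap between the groups, where 24.6% of all genes tested had tumour libraries wholly below WT and 23.6% wholly above. Aldh1a1 was at 0.989 and 2.55 FPKM in tumour and 9.22 and 8.73 FPKM in WT monocytes, and it passed without tumour replicate 5 (adjusted p = 0.0314 by limma). Scgb1a1 was at 13.2 and 60.8 FPKM in tumour and at 44.8 and 391 FPKM in WT. The WT monocyte libraries split Scgb1a1 from the alveolar genes: replicate 4 had 391 FPKM of Scgb1a1 and 13.4 FPKM of Sftpb, while replicate 3 had 44.8 FPKM of Scgb1a1 and 135 FPKM of Sftpb. The ratio of Scgb1a1 to Sftpb was thus 29.2 in replicate 4 and 0.331 in replicate 3.

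Other airway secretory genes were read from lists, first in Epcam+ cells. Among other mucins and mucus genes, 5 of 11 tested were called higher and 0 lower in tumour, with a median of 0.57 on the log2 scale. Over all genes tested in Epcam+ cells, 14.9% were higher and 8.89% lower, the shares to set beside this and the other lists. Of the 5 mucus genes called higher, 3 passed the filter on low values through the tumour libraries alone, so they had to differ. The trefoil factors, small proteins secreted with mucus, led that list. Tff2 was at 443, 289 and 998 FPKM in tumour and 0.102, 6.16 and 0.545 FPKM in WT Epcam+ cells (log2 change 7.78, SE 0.74, adjusted p = 0.00264). Tff1 was at 153, 81.5 and 369 FPKM in tumour and 0, 0 and 0.243 FPKM in WT. It passed the filter through the tumour libraries alone (log2 change 7.28, SE 0.49, adjusted p = 0.000779). Tff3 was at 20.0, 14.2 and 80.0 FPKM in tumour and was listed at 0 in the 3 WT libraries, so it too passed through tumour alone. Tumour replicate 11, the highest for Scgb1a1, was also the highest for these 3 genes.

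Xenobiotic enzymes of airway cells were lower more often than higher in tumour Epcam+ cells, 6 of 16 lower and 2 higher (median -0.64). Fmo1, a flavin-containing monooxygenase, was at 5.05, 4.48 and 2.75 FPKM in tumour and 32.1, 22.9 and 31.7 FPKM in WT (log2 change -2.57, SE 0.23, adjusted p = 0.00204). Gsto1, a glutathione transferase, was higher, at 209, 130.0 and 370.2 FPKM in tumour and 28.2, 48.6 and 13.3 FPKM in WT (log2 change 2.98, SE 0.51, adjusted p = 0.0122). Adh7 was higher as well (1.88, adjusted p = 0.0225). Of the other aldehyde dehydrogenases and retinoid enzymes, 5 of 11 were higher and 1 lower (median 0.68), while Aldh1a1 itself was not called. Aldh1a3, another retinaldehyde dehydrogenase, was at 24.9, 7.84 and 36.3 FPKM in tumour and 0.163, 0.0404 and 0.438 FPKM in WT. It was tested through the tumour libraries alone (log2 change 4.09, SE 0.50, adjusted p = 0.00506). Rbp4, the retinol carrier of plasma, was also higher (1.95, adjusted p = 0.00562).

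Scgb1c1, another secretoglobin, was the 1 of 2 in its list called lower, at 8.72, 26.9 and 3.82 FPKM in tumour and 54.2, 28.6 and 55.2 FPKM in WT Epcam+ cells (log2 change -2.04, SE 0.60, adjusted p = 0.0485). Its lowest WT library was replicate 9, as for Chia. Among other secretory and host defence genes 6 of 24 were higher and 2 lower (median 0.15). Krt19, a keratin of simple epithelium, was at 560, 318 and 869 FPKM in tumour and 51.4, 79.9 and 50.1 FPKM in WT (log2 change 3.16, SE 0.37, adjusted p = 0.00461), and Gabrp was higher too (3.09, adjusted p = 0.0106). Pon1, a paraoxonase, was lower (-3.73, SE 0.74, adjusted p = 0.0179). Neither of 2 chitinase-like genes passed in either direction.

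Of the airway transcription factors and Notch components, 7 of 24 were lower and 3 higher in tumour Epcam+ cells (median -0.33). Of the 7 lower, 1 passed the filter through WT alone and had to differ. Elf3, an epithelial ETS factor, was at 188, 96.1 and 275 FPKM in tumour and 26.7, 28.8 and 25.7 FPKM in WT (log2 change 2.61, SE 0.35, adjusted p = 0.00609). Cebpa and Cebpd, C/EBP factors of lung epithelium, were lower, Cebpa at 58.6, 109.9 and 27.99 FPKM in tumour and 216, 124 and 193 FPKM in WT (log2 change -1.59, SE 0.47, adjusted p = 0.0474). Cebpd had the same log2 change of -1.59 (SE 0.21, adjusted p = 0.00645).

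The same lists were read in total lung, and overlap between the preparations was not tested. Over all genes tested there, 22.1% were higher and 20.4% lower. Mucus genes were higher for 5 of 10, of which 4 passed the filter through tumour alone, and lower for 1, and xenobiotic enzymes were lower for 7 of 15 and higher for 1. Aldehyde dehydrogenases and retinoid enzymes were higher for 6 of 11 and lower for 1, and host defence genes were higher for 7 of 25 and lower for 9, of which 5 passed through WT alone. Transcription factors and Notch components were higher for 6 of 24 and lower for 10, of which 1 passed through WT alone. Fmo2 (log2 change -3.57, adjusted p = 0.00127), Fmo1 (-2.95, adjusted p = 0.000636) and Cyp4b1 (-2.75, adjusted p = 0.00113), oxidases of foreign compounds, were lower in tumour total lung beside Cyp2f2. Adh1, an alcohol dehydrogenase, was lower (-2.92, adjusted p = 0.00203), and so was Scgb1c1 (-2.11, adjusted p = 0.00232). Nkx2-1, the lung epithelial transcription factor, was at 7.92, 3.73 and 3.42 FPKM in tumour and 22.3, 26.0 and 17.6 FPKM in WT total lung (log2 change -1.99, SE 0.28, adjusted p = 0.00143).

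Genes higher in tumour total lung included Tff1 (log2 change 5.49, adjusted p = 5.18e-05), Tff2 (5.26, adjusted p = 0.000242), Tff3 (3.30, adjusted p = 2.58e-05) and Krt19 (3.20, adjusted p = 6.63e-05). Tff1 and Tff3 reached 1 FPKM in no WT total lung library and passed the filter through tumour alone. Elf3 was higher too, at 37.4 ± 15.2 FPKM in tumour and 3.65 ± 1.12 FPKM in WT total lung (SD, n = 3 each; adjusted p = 0.000477 by limma). Lgals3 (2.42, adjusted p = 0.000362), Cebpb (2.23, adjusted p = 4.86e-05), Aldh3a1 (1.40, adjusted p = 0.0255), Rbp4 (1.38, adjusted p = 0.0334) and Ctbs (0.61, adjusted p = 0.00646) were higher as well, and Pon1, which passed through WT alone, was lower (-2.99, adjusted p = 0.000402).

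**Figure D4:**
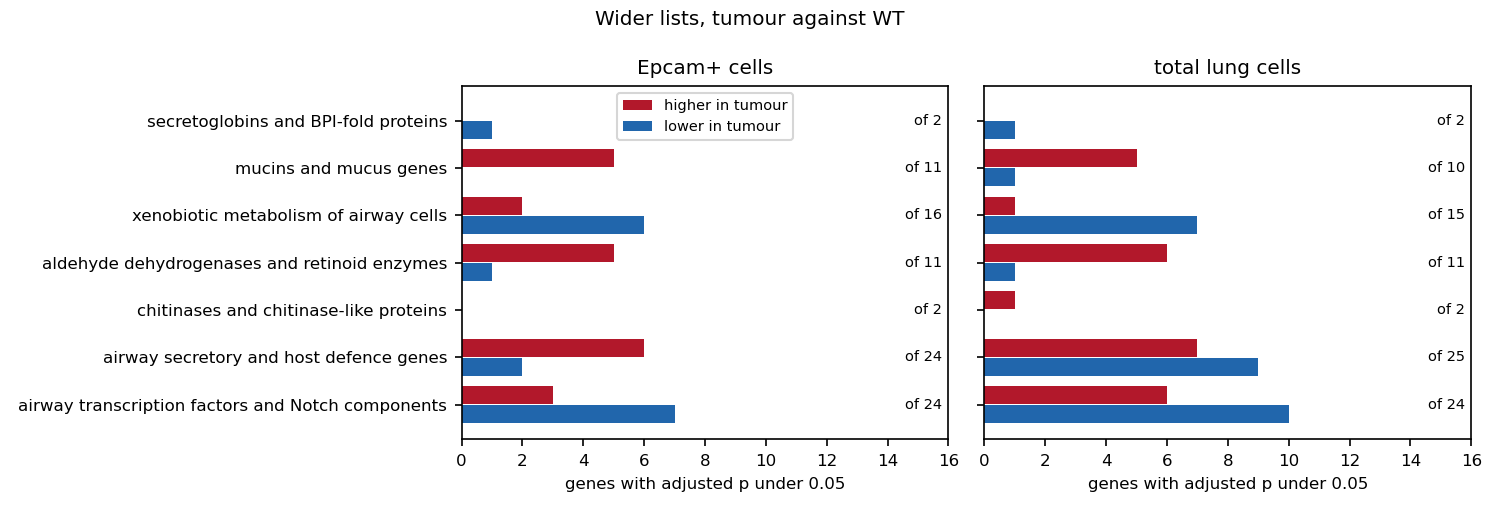
Number of genes of each list called higher (red) or lower (blue) in tumour than in WT lung, in Epcam+ cells and in total lung cells, with the number tested at the right. Mucus genes and retinoid enzymes are called higher more often than lower, and xenobiotic enzymes lower more often than higher, in both preparations. Of the mucus genes called higher, 3 of 5 in Epcam+ cells and 4 of 5 in total lung passed the filter through tumour alone and had to differ. Over all genes tested, 14.9% were higher and 8.89% lower in Epcam+ cells, and 22.1% higher and 20.4% lower in total lung.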

How the data were processed

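RNA was sequenced from 27 libraries of dissociated mouse lung in 10 groups. The deposited values are FPKM per gene symbol for 16024 rows. Per the submitters' processing notes, the authors used CASAVA 1.8.2, TopHat2, Cufflinks and Cuffdiff, with mm10 (GRCm38). Strand use is not given in the sources used here. All 27 columns were matched to libraries by title. Fragment counts were not used here, so no counting interval is given, and relative depth is a rough reading.

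FPKM were raised by a pseudocount of 1 and put on the log2 scale, so fold changes understate those of low genes. A gene entered a test when 2 or more of the compared libraries reached 1 FPKM. The test was limma 3.58.1 (R 4.3.3, intensity trend, empirical Bayes), with p-values adjusted by Benjamini and Hochberg over all genes tested. A call is an adjusted p under 0.05. The procedure was tested on simulated data. SDs are over libraries.

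The 8 genes and all lists were chosen with earlier results of these data known. Named from the wider lists are at most 3 called genes per list and comparison with the largest change and a mean of at least 5 FPKM in the higher group, and, as most like a gene, the 3 with the highest r. One gene that this rule names is not reported here. Alternatives were pseudocounts of 0.1 and 5, other filters, upper-quartile and quantile scaling, 1 fit over the 10 groups, a replicate block and leaving out each library. Calculations other than limma used Python 3.11.15 with pandas 2.3.3 and numpy 2.4.6.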

Additional observations from a re-analysis of the deposited data

How the results depend on the processing

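All 388 log2 changes of the 7 genes between tumour and WT, under every alternative run, were negative, so the direction did not depend on the setting. Calls did. With all 10 groups in 1 fit, the genes called lower in tumour numbered 2 in Epcam+ cells (Cyp2f2 and Chia; 0 in the fit of 2 groups), 5 in total lung (3 in the fit of 2 groups), 0 in macrophages (1) and 1 in monocytes (0), and those higher in WT Epcam+ cells than in WT total lung numbered 4 (2). In neutrophils that fit lost Scgb3a1 (adjusted p = 0.284) and Chia (0.0515), and Aldh1a1 was lost with no filter on low values (0.0555). In macrophages 2 genes were called with a pseudocount of 5, with no filter, with quantile and with upper-quartile scaling, and 0 with a filter at 5 FPKM. Leaving out 1 library gave 0 to 2 genes lower in Epcam+ cells, 3 to 6 in total lung, 1 to 4 in macrophages, 0 to 1 in monocytes and 5 to 6 in neutrophils, and 3 to 4 (tumour) and 2 to 4 (WT) higher in Epcam+ cells than in total lung. A group left with 1 library was assumed to vary like the others. The difference of tumour effects between Epcam+ cells and total lung changed sign for Bpifa1 with a pseudocount of 0.1 (0.20) and, with a library left out, for Scgb3a1 (-1.41 to 0.56) and Bpifa1 (-1.77 to 0.84). Apart from fewer or more libraries in a fit, the cause was not tested. Replicate numbers do not pair these samples: tumour and WT share at most 2 numbers, and deviations of same-numbered libraries correlated at -0.170 to 0.0816. With the replicate block, to which libraries without a partner add nothing, 2 genes were lower in Epcam+ cells (Scgb3a1 and Chia), 5 in total lung, 2 in macrophages and 6 in neutrophils. Over all genes, the block gave 90 lower and 307 higher in Epcam+ cells (1051 and 1765 without it), 1138 and 1285 in total lung (2394 and 2599) and 1904 higher in neutrophils (3115). The fit of all 10 groups gave 2369 lower and 2974 higher in Epcam+ cells, 612 and 540 in monocytes (0 and 0), and 925 and 1348 for the difference of effects (610 and 725). With no filter, 647 were lower in Epcam+ cells. Without 1 library, 104 to 1795 genes were lower and 386 to 2420.0 higher in Epcam+ cells, 673 to 2130.0 and 1105 to 2390.0 in macrophages, 0 to 149 and 0 to 161 in monocytes, and 301 to 986 and 259 to 1470.0 for the difference of effects. No block was fitted for monocytes, which share 1 number, or for Epcam+ against total lung. FPKM without counts leave the counting error of low values unknown.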

Other observations

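Some genes that were higher in tumour Epcam+ cells were also higher in tumour neutrophils, where Scgb1a1 had its lowest mean of the 10 groups. These were chosen after their values were seen, and Tff2 and Elf3 reached 1 FPKM in no WT neutrophil library, so they passed the filter through tumour alone and had to differ. Krt19 was at 13.5, 11.7 and 13.2 FPKM in tumour and 0.802, 1.15 and 2.48 FPKM in WT neutrophils (limma log2 change 2.53, SE 0.22, adjusted p = 4.9e-05). Tff2 was at 10.4, 4.57 and 7.69 FPKM in tumour and 0.197, 0.297 and 0.528 FPKM in WT neutrophils (2.62, SE 0.24, adjusted p = 6.2e-05). Elf3 was at 1.68, 1.74 and 2.29 FPKM in tumour and 0.0624, 0.146 and 0.540 FPKM in WT neutrophils (1.23, SE 0.18, adjusted p = 0.000495). In these libraries Scgb1a1, Sftpc and Sftpb had the opposite direction, and Epcam was near 1 FPKM in both groups. Gsto1 was at 35.9, 31.8 and 37.7 FPKM in tumour and 7.41, 8.13 and 10.5 FPKM in WT neutrophils (1.91, SE 0.14, adjusted p = 2.2e-05).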
